A study of Mus musculus with 6 samples.

Results

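The genes of the proteasome were examined in mouse long-term haematopoietic stem cells (LT-HSCs). Members were all genes of the deposited count table whose symbol begins with Psma, Psmb, Psmc, Psmd, Psme, Psmf or Psmg followed by a number, leaving out pseudogene symbols ending in -ps. This rule found 50 genes among 21761. Of these, 48 encode subunits, activators, an inhibitor or assembly chaperones of the proteasome. Psmc3ip, which encodes a meiotic recombination factor, and Psme3ip1, whose product binds the activator encoded by Psme3, share the letters only and are not subunits. All 50 passed the filter on low counts, so no member was lost from the test.

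The proteasome is the large protease that degrades proteins tagged with ubiquitin. Its barrel, the 20S core, is built of alpha rings that gate the entrance and beta rings that hold the proteolytic sites, and the 19S cap binds, unfolds and feeds the substrate with a ring of ATPases. In immune cells and under interferon the constitutive catalytic subunits encoded by Psmb5, Psmb6 and Psmb7 are exchanged for those encoded by Psmb8, Psmb9 and Psmb10. The resulting immunoproteasome, together with the PA28 activator encoded by Psme1 and Psme2, is known for making peptides for MHC class I. In blood stem cells, protein synthesis and degradation are held low and in balance, and proteasome activity is known to bear on self-renewal.

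The study put Igf2bp1, which encodes the fetal RNA-binding protein IMP1, back into adult blood cells. Donor marrow (CD45.2) was Rosa26 I/+;Mx1-Cre tg/+ in the IMP1 group, where I is the Rosa26 allele from which Cre turns on IMP1, and Rosa26 +/+;Mx1-Cre tg/+ in the Control group. Both groups therefore carried the interferon-inducible Mx1-Cre transgene, both grew in lethally irradiated CD45.1/2 hosts, and both are described 8 weeks after poly(I:C), the double-stranded RNA that induces Cre and an interferon response. CD45.2+ LSK CD150+ CD48- CD34- cells were sorted, 200 per library, with 3 libraries per genotype described as biological replicates. Whether replicates came from separate donors is not given in the sources used here, so p-values measure the spread between these libraries only. The Mx1-Cre driver is not specific to stem cells, and the donors' age is not given in the sources used here.

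Control libraries held 25749898 to 27338450 counts and IMP1 libraries 50220629 to 67083116, so depth differed with genotype. Igf2bp1 had 0, 0 and 1 counts in Control 1 to 3 and 1870, 2084 and 2016 in IMP1 1 to 3, in accord with the labels. All 10 LT-HSC markers examined were detected, and their summed level was 1586 to 1811 counts per 1e6 counts (CPM) in Control and 2065 to 2302 CPM in IMP1 libraries. Marker lists of other cells also differed. The 7 neutrophil markers summed to 18.9 to 47.8 CPM in Control libraries and to 714, 297 and 22.4 CPM in IMP1 1, 2 and 3. The list did not move as one, since S100a8 and S100a9 made up most of the sum in IMP1 1 and 2, whereas Mpo stood at 25.3, 7.40 and 0.360 CPM in Control 1 to 3 and at 0.03 CPM or less in IMP1 libraries. The 6 erythroid markers summed to 35.3 to 42.8 CPM in Control libraries and to 305, 69.6 and 85.5 CPM in IMP1 1 to 3. Of the 6 T or NK cell markers, Cd3g and Ncr1 had 0 counts in every library, and the list summed to 4.04 to 7.29 CPM in Control and 12.8 to 37.7 CPM in IMP1 libraries. Klrb1c alone stood at 0.277 to 5.56 and 11.8 to 34.1 CPM, and Cd3d at 1.002 CPM or less in every library. The 5 monocyte markers, of which Lyz2 made up most, summed to 437 to 518 CPM in Control against 265 to 314 CPM in IMP1 libraries, and the 4 mast cell or basophil markers to 36.0 to 44.9 and 2.45 to 14.7 CPM. The 5 dendritic cell markers summed to 7.48 to 11.4 against 12.8 to 15.4 CPM, mostly Xcr1, with Cd209a at 0. The 5 megakaryocyte markers summed to 323 to 643 against 222 to 420 CPM, and the 5 markers of endothelium or stroma to 24.3 to 36.1 against 25.7 to 33.1 CPM, with Cdh5 at 0. In bulk libraries, fewer cells of a type and less RNA per cell cannot be told apart.

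Stretches of the promoters introduce the members whose regulation is best known. Interferon acts on immunoproteasome genes through GAS and ISRE elements, and the factors NRF1 and NRF2 (Nfe2l1, Nfe2l2) act on constitutive subunit genes through the antioxidant response element (ARE). The 200 bases before each RefSeq gene start (GRCm38.p6) were searched on both strands for ISRE as GAAA, any 2 bases and GAAA, GAS as TTCNNNGAA and ARE as TGACNNNGC, where N is any base. Promoters were found for 42 of the 50 members, 46 in all. They were not found for Psma8, Psmb1, Psmb2, Psmb7, Psmc3, Psmd3, Psmd7 and Psmg2. The ARE letters were in 3 of 46 member promoters (6.52%) and in 8.6% of 32851 promoters of the table. ISRE letters were in 3 of 46 (6.52%, against 2.27%) and GAS letters in 1 of 46 (2.17%, against 5.49%). No match overlapped another motif. A match describes letters only and shows neither a bound site nor a cause. The matches closest to the subject are the ARE letters before the constitutive catalytic genes Psmb5 and Psmb6 and before the chaperone gene Psmd9, and the GAS letters before the immunoproteasome gene Psmb8, each printed on the strand of its gene with the motif in capitals.
Psmb5 (ARE, chr14:54618024-54618052, minus strand): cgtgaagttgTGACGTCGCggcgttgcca
Psmb6 (ARE, chr11:70525338-70525356, plus strand): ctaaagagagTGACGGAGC
Psmd9 (ARE, chr5:123228149-123228177, plus strand): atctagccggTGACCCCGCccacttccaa
Psmb8 (GAS, chr17:34198088-34198116, plus strand): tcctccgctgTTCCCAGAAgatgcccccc
The ISRE letters stood before Psmb3, a structural subunit gene of the core, and Psmd4, the gene of a ubiquitin receptor of the cap, where the match is on the strand opposite to the gene, and before the same chaperone gene.
Psmb3 (ISRE, chr11:97703261-97703290, plus strand): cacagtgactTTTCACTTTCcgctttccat
Psmd4 (ISRE, chr3:95042675-95042704, minus strand): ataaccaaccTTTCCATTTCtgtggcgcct
Psmd9 (ISRE, chr5:123228021-123228050, plus strand): gggacagaatGAAAAAGAAAggaatgaaca
The promoter of Psmc4, the member with the lowest p in the comparison, is shown whole for its 200 bases beside that of Psmb6. It held none of the 3 motifs.
Psmc4 (chr7:28050093-28050292, minus strand): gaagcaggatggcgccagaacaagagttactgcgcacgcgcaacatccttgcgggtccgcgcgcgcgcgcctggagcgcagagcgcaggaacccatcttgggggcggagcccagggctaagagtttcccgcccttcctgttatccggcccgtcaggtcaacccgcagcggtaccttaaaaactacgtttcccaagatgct
Psmb6 (chr11:70525157-70525356, plus strand): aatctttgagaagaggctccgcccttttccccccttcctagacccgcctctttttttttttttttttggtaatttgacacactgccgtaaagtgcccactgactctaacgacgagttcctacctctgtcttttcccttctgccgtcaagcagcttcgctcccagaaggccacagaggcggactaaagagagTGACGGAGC

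Proteasome transcripts were slightly less abundant in IMP1 than in Control LT-HSCs, across nearly all parts of the complex, but no single member passed the test over all genes. Together the 50 members took 1.11%, 1.08% and 1.17% of the counts of Control 1 to 3, and 0.974%, 0.982% and 1.001% of IMP1 1 to 3. The share was 1.12% ± 0.0478 in Control and 0.986% ± 0.0139 in IMP1 libraries (SD, n = 3), lower by 0.136 percentage points, and the groups did not overlap. After scaling by trimmed mean of M values (TMM), the summed level was 11586 ± 453 CPM in Control against 9553 ± 117 CPM in IMP1 libraries (SD, n = 3). On this scale the sum over all 12807 genes tested was also lower in IMP1 without overlap (1032740 ± 7696 against 968315 ± 2287 CPM, SD, n = 3). Every summed level in CPM given here carries this shift.

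Fold changes came from the quasi-likelihood test of edgeR fitted to all 12807 genes that passed the filter, and a gene was called where its p, adjusted by Benjamini-Hochberg, was under 0.05. Of the 50 members, 0 were called in either direction, where 0.211% of all genes were called (0.0703% higher and 0.141% lower). Before adjustment, 20 of 50 members (40%) were lower and 0 higher at p under 0.05, while 7.63% of all genes tested were lower and 6.67% higher. Levels of the groups did not overlap for 22 of 50 members (44%), all lower in IMP1, where 11.1% of all genes were lower and 10.7% higher without overlap. DESeq2 called 6 of 50 members (12%) lower, namely Psmc4, Psmc5, Psmb1, Psme1, Psmd13 and Psmb8, and 0 higher, where it called 3.05% of all genes lower and 2.37% higher. With limma-voom 0 members were called, where 0.0781% of all genes were lower and 0.00781% higher. The log2 fold change was negative for 45 of 50 members and for 47.8% of all genes tested, and its median was −0.28 over the members and 0.03 over all genes. The 5 members with a positive value were Psma8, Psmb11, Psme4, Psmd3 and Psmg4, of which Psmg4 had the highest level per length in Control (61.5 CPM per kb of transcript). Without the 2 genes that are not subunits, 43 of 48 were negative, with a median of −0.28.

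**Figure D1:**
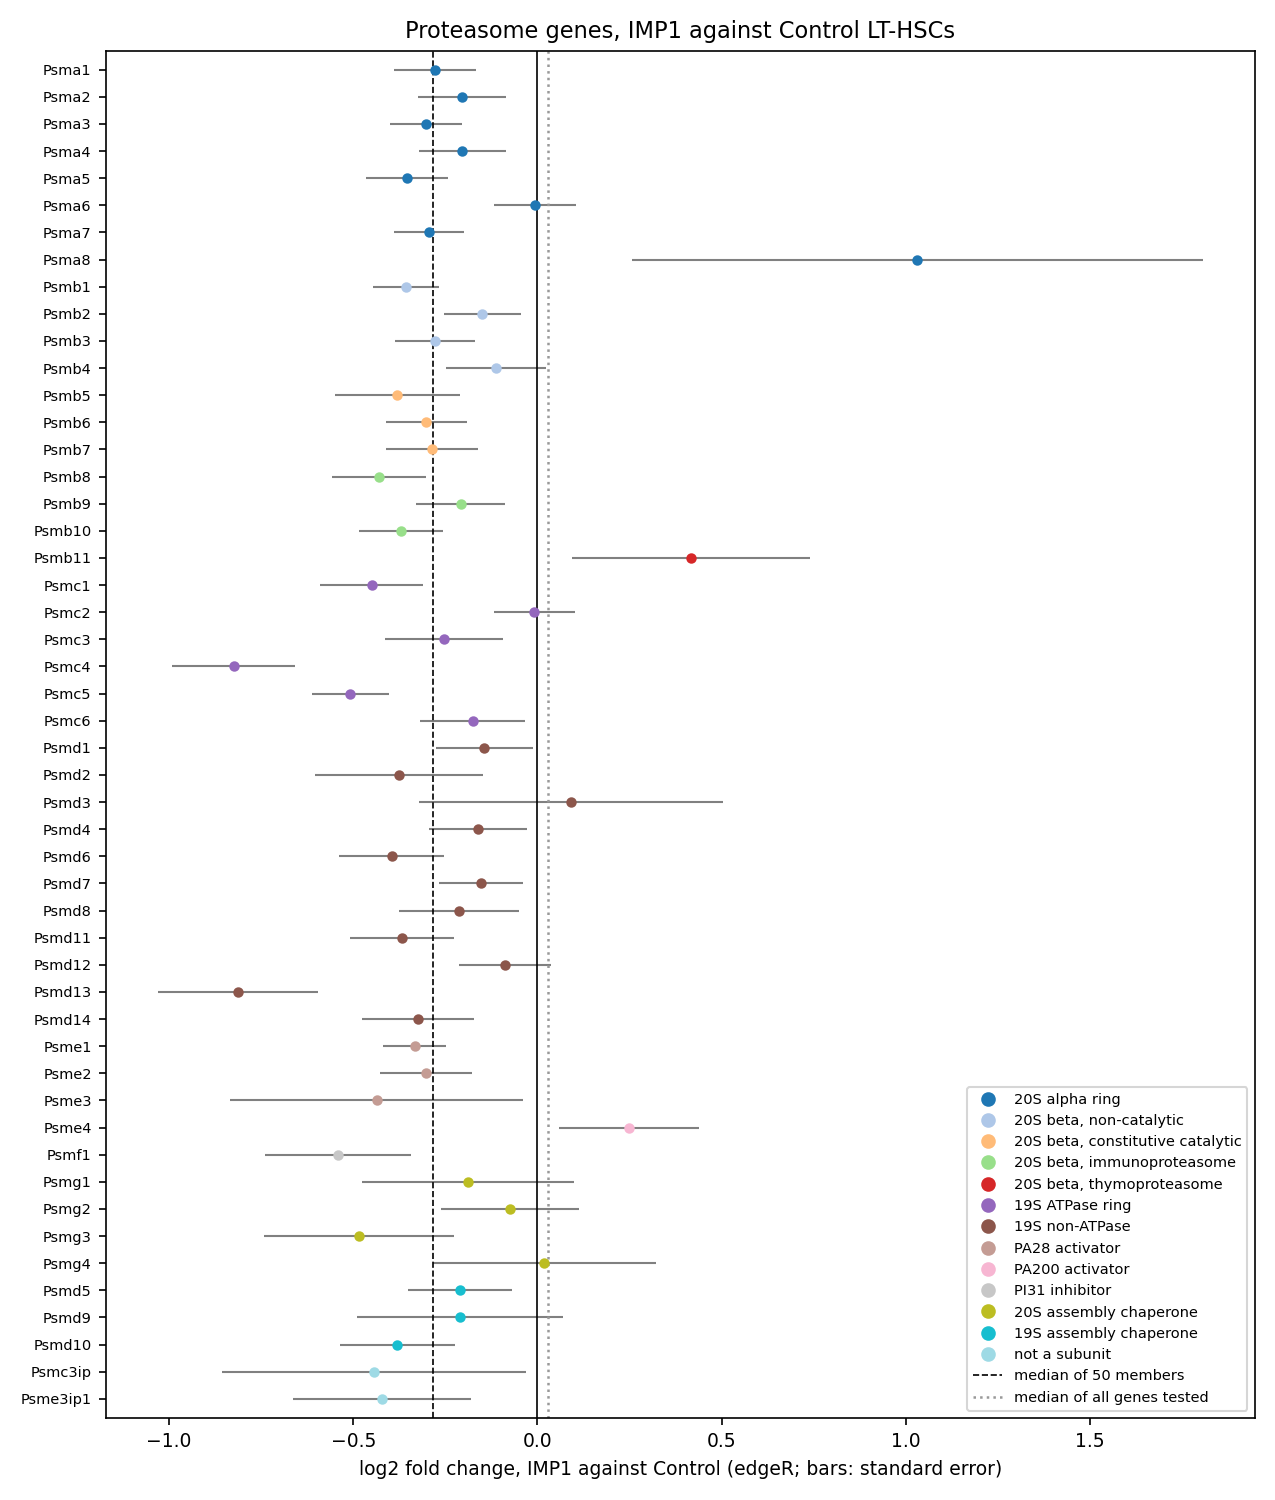
Log2 fold change of IMP1 against Control for each of the 50 members (horizontal axis, edgeR estimate with its standard error as a bar), ordered by role and coloured by it. Most points lie left of 0 around the members' median of −0.28 (dashed line), while the median of all genes tested (dotted line) is 0.03, and Psma8, Psmb11 and Psme4 stand to the right.

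The alpha rings of the core are formed by the products of Psma1 to Psma7. These genes, with Psma8, summed to 3030 to 3169 CPM in Control against 2633 to 2721 CPM in IMP1 libraries. Of the 8 genes, 7 were negative, 4 were lower at an unadjusted p under 0.05 and the levels of 5 did not overlap between groups. Psma7, the most abundant member per length, stood at 522, 466 and 514 CPM in Control 1 to 3 and at 384, 409 and 431 CPM in IMP1 1 to 3. Its lowest Control library lay above its highest IMP1 library (log2 fold change −0.29, SE 0.10, edgeR adjusted p = 0.227). Psma5 had the lowest fold change of the ring, with 401, 409 and 449 CPM against 347, 290 and 348 CPM (−0.35, SE 0.11, edgeR adjusted p = 0.217), again without overlap. Psma6 was level, with 357 to 425 CPM in Control against 374 to 435 CPM in IMP1 libraries (−0.01, SE 0.11).

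Psma8 encodes an alpha subunit that replaces that of Psma7 in male germ cells. Whether its counts include reads of Psma7 cannot be told from the sources used here, so its values are uncertain. It was counted in all libraries, at 23.7, 69.8 and 4.12 CPM in Control 1 to 3 and at 53.3, 83.0 and 63.3 CPM in IMP1 1 to 3. The Control libraries ranged widely and Control 2 lay inside the IMP1 range. The log2 fold change was the highest of the members but poorly determined (1.03, SE 0.77, edgeR adjusted p = 0.609), and it was 0.51 without Control 3 and 2.26 without Control 2.

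Among the beta subunits without a proteolytic site, Psmb1, Psmb2, Psmb3 and Psmb4, all 4 were negative and 2 were lower at an unadjusted p under 0.05. Psmb1 stood at 496, 496 and 535 CPM in Control 1 to 3 and at 413, 399 and 380 CPM in IMP1 1 to 3. All Control libraries lay above all IMP1 libraries (log2 fold change −0.36, SE 0.09, edgeR adjusted p = 0.126). Psmb2, the most abundant of the 4 per length at 473 CPM per kb of transcript in Control, stood at 368 to 441 and 347 to 383 CPM, with overlap (−0.15, SE 0.10, and −0.09 without Control 3). Psmb4 had the smallest difference (127 ± 10.4 against 118 ± 7.62 CPM, SD, n = 3).

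The genes of all 3 constitutive catalytic subunits were lower without overlap, with log2 fold changes from −0.38 to −0.29. Psmb5, which carries the chymotrypsin-like site, stood at 168, 196 and 184 CPM in Control 1 to 3 and at 109, 149 and 164 CPM in IMP1 1 to 3. IMP1 1 was the lowest library (log2 fold change −0.38, SE 0.17, edgeR adjusted p = 0.368, and −0.22 without IMP1 1). Psmb6, which carries the caspase-like site, stood at 375, 360 and 444 CPM against 323, 325 and 308 CPM (−0.30, SE 0.11, edgeR adjusted p = 0.277, and −0.19 after removal of the trend on length and GC). Psmb7, which carries the trypsin-like site, stood at 155, 144 and 155 CPM against 132, 116 and 124 CPM (−0.29, SE 0.12, edgeR adjusted p = 0.348). Pseudogenes named for Psmb5, Psmb6, Psmb7 and Psma5 are annotated, and how shared reads were assigned is not given in the sources used here, so these 4 genes are uncertain.

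The immunoproteasome genes were counted in the stem cells of both genotypes, at 182 CPM or more in every library. None of the 3 passed the edgeR test, and the levels of 2 did not overlap. Psmb8, which replaces Psmb5, stood at 613, 544 and 582 CPM in Control 1 to 3 and at 354, 473 and 463 CPM in IMP1 1 to 3. The groups did not overlap, with IMP1 1 the lowest (log2 fold change −0.43, SE 0.13, edgeR adjusted p = 0.192). Psmb10, which replaces Psmb7, stood at 231, 224 and 265 CPM against 184, 192 and 182 CPM, also without overlap (−0.37, SE 0.11, edgeR adjusted p = 0.207). Psmb9, which replaces Psmb6, stood at 226, 212 and 260 CPM against 193, 217 and 195 CPM, and here IMP1 2 lay above Control 2 (−0.21, SE 0.12, edgeR adjusted p = 0.499). Its fold change was −0.12 without Control 3 or without scaling, and −0.11 after removal of the length and GC trend. Psmb11, which encodes the catalytic subunit of the thymic cortex, was low in all libraries, at 14.3, 11.4 and 17.4 CPM against 16.9, 20.2 and 20.4 CPM (0.42, SE 0.32, edgeR adjusted p = 0.623, and 0.28 without Control 2).

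**Figure D2:**
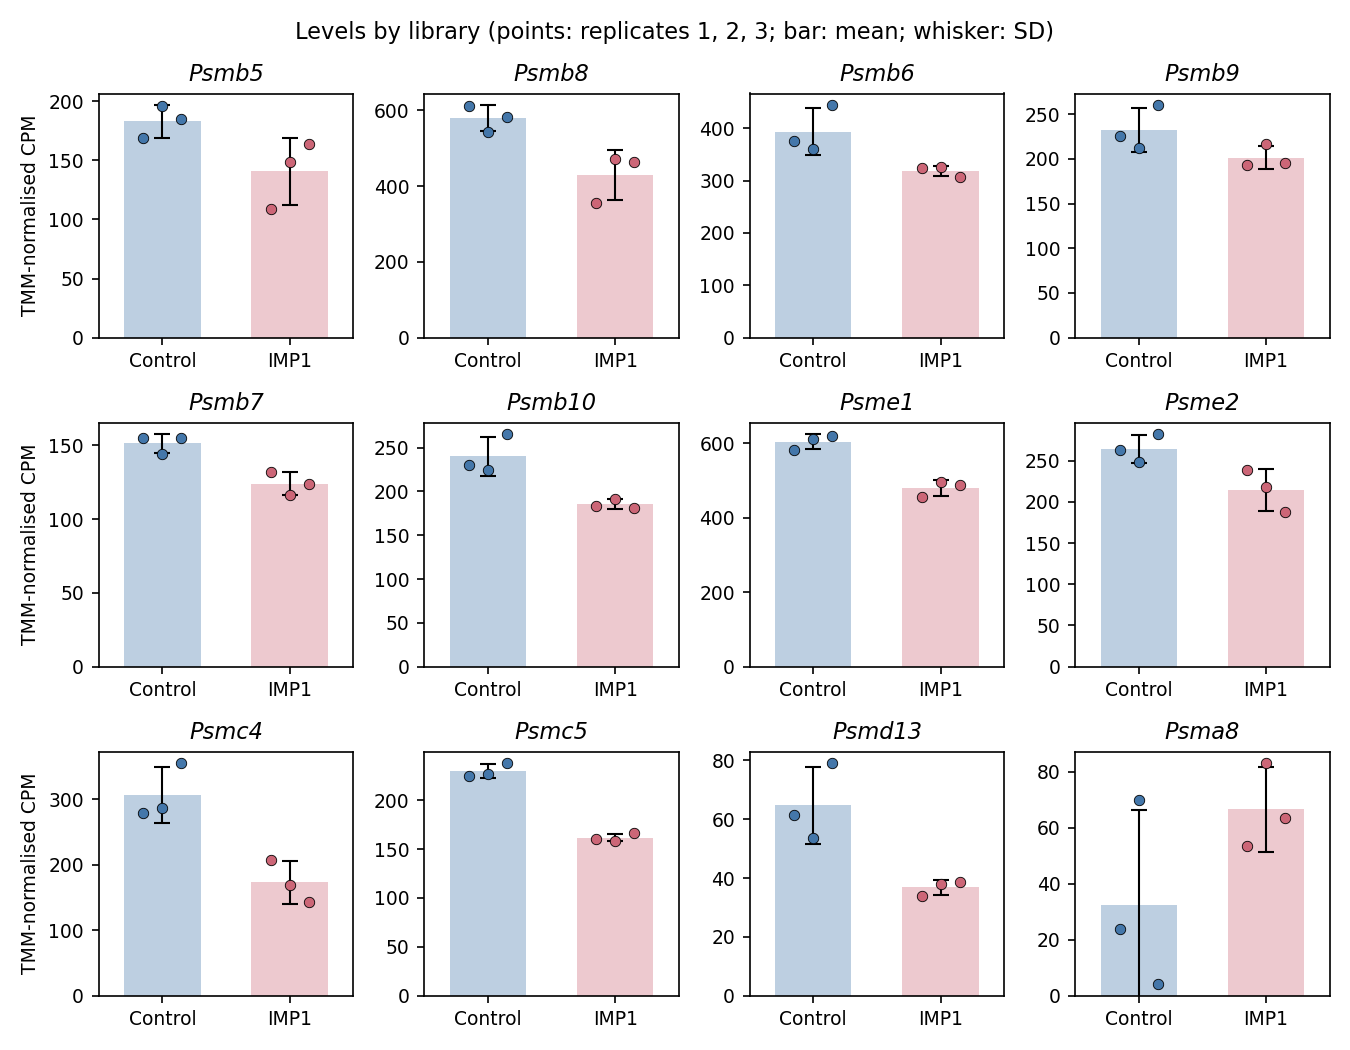
TMM-normalised CPM (vertical axes, each starting at 0) of 12 members in the 3 Control and 3 IMP1 libraries, with points for replicates 1, 2 and 3 from left to right, bars for the mean and whiskers for the SD, which for Psma8 in Control is larger than the mean and is cut at 0. All Control points lie above all IMP1 points for 10 of the 12 genes, while Psmb9 and Psma8 overlap.

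The balance between immunoproteasome and constitutive subunits did not separate the genotypes. The ratio of the summed counts per transcript kb of Psmb8, Psmb9 and Psmb10 to those of Psmb5, Psmb6 and Psmb7 was 0.910, 0.835 and 0.840 in Control 1 to 3 and 0.781, 0.887 and 0.841 in IMP1 1 to 3. The immunoproteasome genes thus gave 43.9% to 47.6% of the length-corrected catalytic counts in the 6 libraries, with the genotypes overlapping. On the log2 scale the mean ratio was −0.22 ± 0.07 in Control and −0.26 ± 0.09 in IMP1 libraries (SD, n = 3), a difference of −0.04 that is smaller than either SD, and it was 0.004 without IMP1 1. Library scaling does not enter a ratio within a library.

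The replaced pairs were not equally filled. Per length, Psmb8 exceeded Psmb5, with ratios of 2.01, 1.53 and 1.74 in Control and 1.80, 1.76 and 1.56 in IMP1 libraries. Psmb10 exceeded Psmb7, with 1.32, 1.38 and 1.51 against 1.23, 1.46 and 1.30. Psmb9 stayed below Psmb6 in all 6 libraries, with 0.355, 0.348 and 0.346 against 0.352, 0.393 and 0.374. The order was thus the same in both genotypes, and it depends on the annotated lengths used. The exact two-sided permutation test of the log2 ratio over the 6 libraries gave p = 1 for Psmb8 over Psmb5, p = 0.2 for Psmb9 over Psmb6 and p = 0.4 for Psmb10 over Psmb7, 3 ratios with 0.1 as the smallest p that 3 against 3 allows. These p-values do not show that the ratios were alike.

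**Figure D3:**
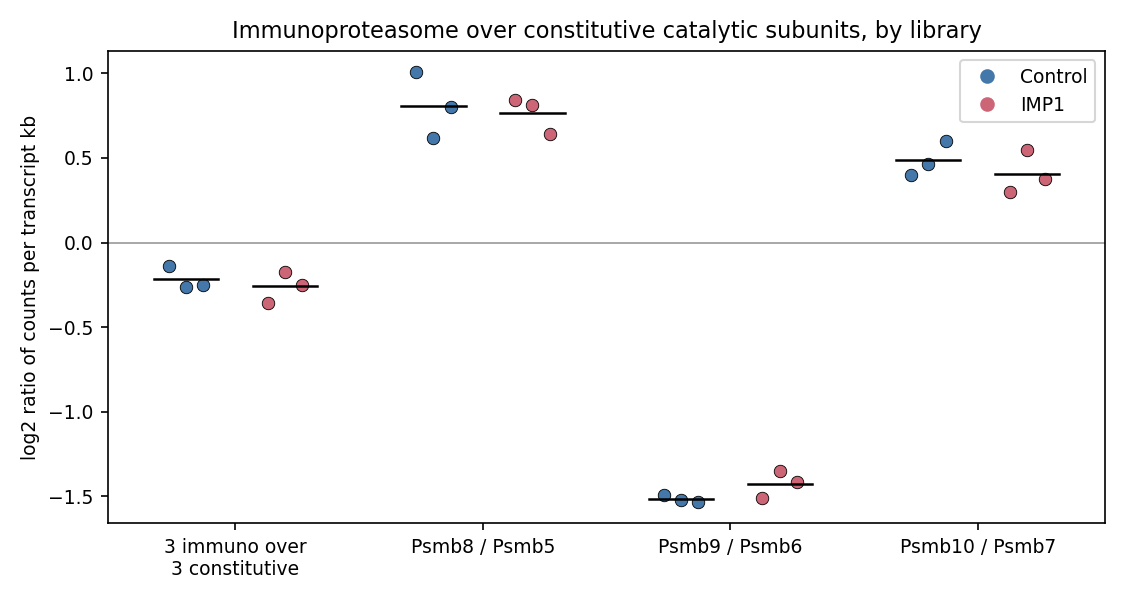
Log2 ratio of counts per transcript kb (vertical axis) in each library, for the 3 immunoproteasome over the 3 constitutive catalytic genes and for each replaced pair, with a line at the mean of each genotype. The genotypes overlap in all 4 columns, Psmb8 and Psmb10 lie above their partners and Psmb9 lies below its partner.

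The ATPase ring of the 19S cap held the member with the most negative fold change. All 6 Psmc genes that encode it were negative, with a median of −0.35, and their sum was 1509, 1510 and 1577 CPM in Control 1 to 3 and 1185, 1164 and 1176 CPM in IMP1 1 to 3. Psmc4 (Rpt3) stood at 278, 286 and 355 CPM in Control 1 to 3 and at 207, 169 and 142 CPM in IMP1 1 to 3. The groups were well apart (log2 fold change −0.82, SE 0.17, edgeR adjusted p = 0.0850). Its adjusted p was 0.0497 with a strict filter, where 1 of 50 members and 0.575% of all genes were called lower, and 0.000143 with DESeq2, and ranged up to 0.238 over 15 alternatives. Psmc5 (Rpt6) had the tightest replicates of the ring, with 225, 227 and 238 CPM against 161, 159 and 166 CPM (−0.51, SE 0.10, edgeR adjusted p = 0.0887). Over 15 alternatives its adjusted p ranged from 0.00214, with DESeq2, to 0.238. Psmc1 (Rpt2), whose tail opens the gate of the core, stood at 318, 310 and 337 CPM against 191, 250 and 266 CPM (−0.45, SE 0.14). Psmc2 (Rpt1) in contrast was level, at 172 to 186 CPM in Control against 172 to 184 CPM in IMP1 libraries (−0.01, SE 0.11), so ATPase genes whose products are found in equal number in the complex did not have equal fold changes. The difference between them was not tested.

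Of the 11 genes for non-ATPase subunits of the cap, 10 were negative, 3 were lower at an unadjusted p under 0.05 and 4 did not overlap. Psmd13 (Rpn9), a lid subunit, stood at 61.5, 53.5 and 79.1 CPM in Control 1 to 3 and at 33.9, 37.8 and 38.7 CPM in IMP1 1 to 3. The groups were apart (log2 fold change −0.81, SE 0.22, edgeR adjusted p = 0.146). Psmd14, the deubiquitinase of the lid and the most abundant of these genes per length, stood at 294, 262 and 302 CPM against 249, 256 and 181 CPM (−0.32, SE 0.15, edgeR adjusted p = 0.391), and its fold change was −0.18 without IMP1 3. Psmd3 was the exception, at 34.3, 14.5 and 35.9 CPM against 38.3, 33.0 and 19.1 CPM (0.09, SE 0.41), and its sign turned without Control 2 or without IMP1 1.

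Among the activators, the PA28 alpha and beta genes had lower levels in IMP1 without overlap, although neither passed the edgeR test, and the gene for PA200 overlapped. Psme1 stood at 581, 612 and 619 CPM in Control 1 to 3 and at 455, 497 and 487 CPM in IMP1 1 to 3. The groups did not overlap (log2 fold change −0.33, SE 0.09, edgeR adjusted p = 0.134). Psme2, its partner in the ring, stood at 263, 249 and 282 CPM against 238, 218 and 188 CPM (−0.30, SE 0.12, edgeR adjusted p = 0.322). Psme1 overlaps Emc9 in the reference, so reads of both could be mixed. Psme2 has a near-identical copy, Psme2b, which is not analysed here, and is uncertain for that reason. In all, 14 members overlap another annotated gene. Per length, Psme1 was 1.90 to 2.13 times Psme2 in Control and 1.65 to 2.24 times in IMP1 libraries. Psme3, the nuclear PA28 gamma gene, ranged from 37.8 to 60.5 CPM in Control and from 18.6 to 57.2 CPM in IMP1 libraries, with IMP1 2 the lowest (−0.44, SE 0.40, and −0.11 without IMP1 2 or −0.87 without IMP1 1). Psme4, which encodes PA200, stood at 55.3, 61.8 and 79.3 CPM against 72.9, 81.7 and 78.6 CPM (0.25, SE 0.19, edgeR adjusted p = 0.615). Its value was −0.10 once the length trend described below was removed, a step that left the median of all genes at −0.08. Psmf1, the gene for the inhibitor PI31, stood at 92.7, 139 and 149 CPM against 81.1, 85.3 and 94.9 CPM, so that Control 1 lay inside the IMP1 range (−0.54, SE 0.20, edgeR adjusted p = 0.278).

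The 4 Psmg genes, which build the 20S core, summed to 238 to 314 CPM in Control against 209 to 295 CPM in IMP1 libraries and overlapped in all 4 cases, with 0 of 4 lower at an unadjusted p under 0.05. Psmg3 had the most negative value (62.1 ± 8.17 against 44.4 ± 13.8 CPM, SD, n = 3, log2 fold change −0.48, SE 0.26, and −0.77 without IMP1 2), and Psmg4 was level (34.1 ± 10.4 against 34.6 ± 8.11 CPM). Psmg2, the most abundant of them per length, stood at 132 ± 26.4 against 125 ± 17.3 CPM. Of the chaperones of the 19S base, Psmd10 (gankyrin) stood at 122, 111 and 105 CPM in Control 1 to 3 and at 74.9, 91.3 and 93.2 CPM in IMP1 1 to 3, without overlap (−0.38, SE 0.16, edgeR adjusted p = 0.317). It overlaps Atg4a in the reference. Psmd9 stood at 31.4 to 45.3 against 27.4 to 45.4 CPM. Of the 2 genes that are not subunits, Psmc3ip stood at 17.0 to 42.8 against 13.9 to 27.3 CPM and Psme3ip1 at 80.3 to 110 against 51.3 to 88.7 CPM, both with overlap.

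The spread of the members among replicates was not set against that of other genes. The coefficient of variation reached 104% for Psma8 in Control and 51.2% for Psme3 in IMP1 libraries. The median coefficient of variation over the 50 members was 10.01% in Control and 10.5% in IMP1 libraries, and over the 34 core subunits (20S without Psma8 and Psmb11, and 19S without chaperones) it was 8.54% and 8.10%. Control 3 held the highest level of 28 members and IMP1 1, 2 and 3 the lowest level of 15, 16 and 10 members. No single IMP1 library held the lowest level of most members. The summed member level was 9469 to 9687 CPM in the IMP1 libraries, below the lowest Control library at 11258 CPM. Without IMP1 1, whose neutrophil and erythroid marker sums were the highest, 45 of 50 members were negative with a median of −0.27.

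Levels per length differed widely within the core, although its subunits are found in equal number in the protein. In Control, Psma7 (548 CPM per kb), Psmb6 (492) and Psmb2 (473) were the highest of the 20S genes without Psma8 and Psmb11, and Psma2 (105) and Psmb4 (108) the lowest. The lowest of the 19S subunit genes were Psmd13 (32.5) and Psmd3 (13.2). Such levels rest on the annotated transcript used, which is 2911 bases long for Psma2 and 914 bases for Psma7.

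Transcript length moved with the result. The members are short, with a median of 1476 bases, and fold changes in this comparison followed length over all genes. Genes with a mean log2 CPM over 3 were put into 4 bins of length, and in the bin of the shortest transcripts (up to 1884 bases) 70.4% were negative, the median log2 fold change was −0.17 and 19% were lower at an unadjusted p under 0.05. The 34 members in that bin had 32 negative values, a median of −0.29 and 16 lower at that level (47.1%). In the next bin (1885 to 2971 bases) the median was −0.10 over all genes and −0.30 over 11 members. The trend on length and GC content was then removed from each library. It was fitted to counts scaled by library totals and removed on top of TMM scaling, so differences in level between libraries were corrected in both steps. The bin medians of all genes were thus not centred on 0 but ran from −0.164 to −0.098. Every value, count and p given with the trend removed carries this shift. So fitted, 46 of 50 members were negative, where 56.9% of all genes were. The members' median was −0.26 and that of all 12807 genes tested −0.08, a gap of −0.18 in place of −0.31. Within the bin of the shortest transcripts the medians were then −0.22 over the members and −0.12 over all genes, against −0.29 and −0.17 before. In the next bin they were −0.41 and −0.14. At an unadjusted p under 0.05, 20 members were lower after removal, 16 of them among the 20 found without removal, where 10.4% of all genes were lower. Psmb1, Psma3 and Psmc4 then had the lowest p (edgeR adjusted p = 0.0973, 0.0973 and 0.0978).

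**Figure D4:**
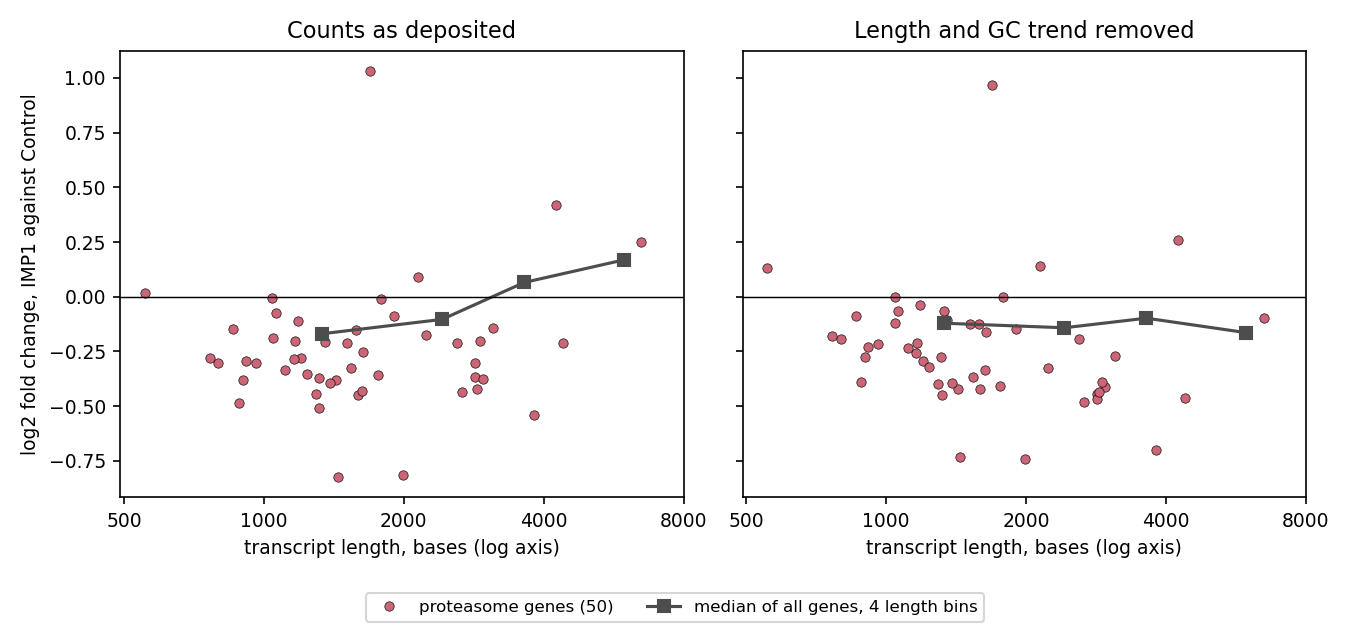
Log2 fold change of IMP1 against Control (vertical axis) against annotated transcript length (horizontal log axis) for the 50 members (points), with the median of all genes with a mean log2 CPM over 3 in 4 length bins (squares), from the counts as deposited (left) and after removal of the trend on length and GC content (right). The squares climb from −0.17 to 0.17 on the left and stay between −0.16 and −0.10 on the right, and most members lie below them in both panels.

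Scaling moved the fold changes of members and of all genes alike. Without scaling beyond library totals, 41 of 50 members were negative with a median of −0.19 and 9 were lower at an unadjusted p under 0.05. Of all genes, 40.9% were then negative and 5.07% lower at that level, and their median was 0.12. The gap between the members' median and that of all genes was −0.31 with and without TMM.

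Other genes of the pathway came from lists chosen beside the members, and 0 of their genes passed the adjusted threshold in the edgeR fit as designed. Of the list genes named below, DESeq2 called Ecpas and Nlrc5 higher and Ubb, Calr and Ifi47 lower. It called 3.05% of all genes lower and 2.37% higher. With the strict filter edgeR called Ifi47 lower (adjusted p = 0.0449), where 0.575% of all genes were called lower. Before adjustment, 7.63% of all genes tested were lower and 6.67% higher, the background for the counts of each list. Of 21 partners and regulators of the proteasome, 13 were negative (median −0.13), 0 were lower and 2 higher where no adjustment of p was made (p under 0.05). The scaffold gene Ecpas stood at 67.1 ± 11.7 CPM in Control against 112 ± 4.26 CPM in IMP1 libraries (SD, n = 3, log2 fold change 0.74, SE 0.17, edgeR adjusted p = 0.110), without overlap, and its fold change was 0.35 with the length and GC trend removed. Txnl1, a thioredoxin-like protein of the 19S cap, stood at 159 ± 18.2 against 205 ± 32.5 CPM (0.37, and 0.07 with that trend removed). Sem1, the smallest 19S subunit, whose symbol lies outside the rule, stood at 232 ± 10.9 against 194 ± 15.7 CPM, lower without overlap (−0.26, SE 0.11, edgeR adjusted p = 0.358). Pomp, the maturation factor of the 20S core, stood at 298 ± 22.7 against 260 ± 24.1 CPM (−0.19, SE 0.12).

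Of 17 genes for ubiquitin, its activating and conjugating enzymes and the p97 segregase, 12 were negative (median −0.10), at an unadjusted p under 0.05 4 were lower and 0 higher. The polyubiquitin gene Ubb was the most abundant, with 5527 ± 29.8 CPM in Control against 4438 ± 550 CPM in IMP1 libraries (SD, n = 3, log2 fold change −0.32, SE 0.09, edgeR adjusted p = 0.161). Its levels did not overlap between the groups.

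None of the genes listed as working with the immunoproteasome passed the adjusted threshold in the edgeR fit as designed. Of 14 genes of MHC class I presentation, 9 were negative (median −0.18), at an unadjusted p under 0.05 2 were lower and 1 higher. Nlrc5, the transactivator of MHC class I genes and of Psmb9, stood at 52.4 ± 8.60 CPM in Control against 102 ± 21.9 CPM in IMP1 libraries (SD, n = 3, log2 fold change 0.95, SE 0.22, edgeR adjusted p = 0.110, and 0.60 on the log2 scale with the trend removed), while the chaperone gene Calr stood at 497 ± 86.3 against 336 ± 44.4 CPM (−0.56, SE 0.16, edgeR adjusted p = 0.169). B2m, the light chain of MHC class I, was level at 5733 ± 191 against 6111 ± 425 CPM, and so was H2-K1 (1470 ± 179 against 1564 ± 59.5 CPM), whose counts are uncertain because it has near-identical relatives. H2-D1, another MHC class I gene of the list, stood at 1725.5 ± 189 against 1430 ± 185 CPM, with overlap (−0.27, SE 0.12, edgeR adjusted p = 0.347). Of 18 interferon response genes, 13 were negative (median −0.33), at an unadjusted p under 0.05 4 were lower and 0 higher, and their sum was 1723 to 1799 CPM in Control against 1197 to 1498 CPM in IMP1 libraries. Ifi47, an interferon-inducible GTPase, had the lowest p of this list (483 ± 40.4 against 293 ± 47.3 CPM, log2 fold change −0.72, SE 0.14, edgeR adjusted p = 0.0798). Oas1a stood at 83.4 ± 6.21 against 57.9 ± 5.26 CPM and Irgm1 at 301 ± 13.8 against 227 ± 47.8 CPM. The summed levels of the interferon list, of the monocyte list and of the mast cell list were lower in the IMP1 libraries without overlap. The same held for the ubiquitin list (11834 to 12234 against 9848 to 11142 CPM). It also held for the levels of Psmb8 and Psmb10 and of the constitutive Psmb5, Psmb6 and Psmb7. The sum over all genes tested was lower without overlap as well, at 1026580 to 1041370 CPM in Control against 966893 to 970954 CPM in IMP1 libraries. Psmb9 and the sum of the MHC class I list overlapped. The part of these lists in the result was not tested.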

How the data were processed

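The table deposited by the authors holds raw counts for each Entrez gene and library, per the file headers. The submitters' processing notes list TopHat2 2.0.10 and mm9 without saying what each was used for. The counting program, strand setting and annotation are not given in the sources used here. Symbols came from RefSeq (GRCm38.p6) by Entrez identifier, which matched 21615 of 21761. The 146 others held 0.0645% of counts. Coordinates are those of the RefSeq promoter table. Lengths are those of the longest protein-coding GENCODE M21 transcript with a RefSeq match.

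Counts were tested with edgeR 4.0.16 (glmQLFit, glmQLFTest, default settings) in R 4.3.3, with TMM scaling, filterByExpr, genotype as the single term and 6 libraries in 1 fit, adjusted over all 12807 genes. A standard error is the size of the log2 fold change over the root of its F statistic. CPM are counts per 1e6 of the TMM-scaled library. The alternatives were DESeq2 1.42.0, limma-voom 3.58.1, other scalings and filters, a threshold of 0.10, the replicate number as a term, thinning to 25749898 counts, removal of a loess trend (span 0.4, fitted above a mean log2 CPM of 3) on length and GC content, and each library left out. The count at an unadjusted p and the share of counts were added to these after the data were seen. Libraries of a genotype differed by a chi-square per degree of freedom of at least 62.1, so none was a duplicate. On simulated counts for 12516 genes the fit recovered 22% of genes that had a log2 change of 1 and 71% of genes with a log2 change of 3, with 4 false among 97 calls.

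The members, lists and tests were chosen with earlier results of these data known. Named genes were the catalytic subunits and activators, the 8 members of lowest p, and in each role the largest rise, largest fall and most abundant member. From each pathway list they were the 2 genes of lowest p and the 2 most abundant per length. A gene that this rule names and a marker list are not reported here. Psma2, Psma3, Psma6 and H2-D1, and Psmb3 and Psmd4 for their promoters, were named outside this rule after their values were seen.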

Additional observations from a re-analysis of the deposited data

How the results depend on the processing

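The members' median log2 fold change was negative in all 15 alternatives, with 41 to 46 of 50 members negative, and the count of members called higher was 0 in all 16. Members called lower numbered 0 in the test as designed, 6 with DESeq2, 1 with the strict filter and 2 at an adjusted p under 0.10, and 0 in the other 13 alternatives. Of all genes, 0.141% were called lower in the test as designed, 3.05% with DESeq2 and 0.575% with the strict filter. At an adjusted p under 0.10, 231 of 12807 genes were called in either direction, and the share called lower is not given here. Without scaling the members' median was −0.19 and 9 members were lower at an unadjusted p under 0.05, where 5.07% of all genes were. With each library left out in turn the median ranged from −0.33 to −0.23 (without IMP1 2) and that count from 12 (without Control 3) to 17. The number of genes called over all genes, 27, was 16 without scaling, 103 with the strict filter, 694 with DESeq2, 11 with limma-voom, 231 at an adjusted p under 0.10 and 0 to 2 with a library left out. The share of counts was lower in IMP1 in all 7 alternatives, by 0.110 to 0.156 percentage points.

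Same-numbered libraries did not deviate together over all genes (correlations of 0.01, 0.03 and −0.01). Such correlations do not exclude a shared donor or preparation. Whether the numbers pair the libraries is not given in the sources used here. With the replicate block, 4 genes were called over all genes and 0 members were called. At an unadjusted p under 0.05, 18 members and 7.21% of all genes were lower, and the members' median was −0.29.

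The log2 ratio of immunoproteasome to constitutive genes, −0.04, ranged from −0.0867 to 0.00438 with a library left out, the last without IMP1 1, where its sign turned. Of 32 named members, 5 changed sign in an alternative. Psmc2 was 0.0839 without scaling, 0.00794 with the strict filter, and −0.0408 to 0.0187 with a library left out. Psmg2 was 0.0167 without scaling and −0.224 to 0.0558 with a library left out. Psme4 was −0.0975 with the length and GC trend removed, where the median of all genes was −0.0847. With a library left out, Psmg4 ranged from −0.178 to 0.284 and Psmd3 from −0.221 to 0.337. Depth differed with genotype. With libraries thinned to equal total counts the members' median was −0.29, and 18 members and 7.89% of all genes were lower at an unadjusted p under 0.05. The cause of these shifts was not tested.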
